A study of Mus musculus with 2 samples.

Results

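Expression of 10 genes of the urea cycle and the periportal program of the liver was described in WT and N-LKO mice by single-cell RNA sequencing. The genes were taken by symbol from the 32285 genes of the count matrices and were Cps1, Otc, Ass1, Asl, Arg1, Cyp2f2, Hal, Sds, Gls2 and Hsd17b13. Each symbol matched 1 gene, all 10 were measured in hepatocyte-like cells of both libraries, and their values played no part in the choice of cells.

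The study compared 1 WT library (genotype label CTRL), made from liver, with 1 N-LKO library (genotype label NgBR KO), made from liver plus tumor. N-LKO mice carry loxP-flanked alleles of Nus1, which encodes NgBR, a subunit of the cis-prenyltransferase that makes dolichol, and albumin-Cre removes the gene in cells that express albumin. The mice were of the C57BL6 background, and no age is given in the labels. Both groups had been fed for 16 weeks a diet called WD in the treatment labels and HFD in the titles. Hepatocytes and nonparenchymal cells were mixed at 1:1, and for N-LKO tumor cells were added at 0.25. Genotype, tumor tissue and library therefore cannot be told apart. With 1 library per group there is no replicate spread and no test, and every interval below is a 95% interval that covers counting error only.

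In the urea cycle, ammonia and bicarbonate enter as carbamoyl phosphate, which is joined to ornithine, passed through citrulline and argininosuccinate to arginine, and split into urea and ornithine. The enzymes are most abundant in hepatocytes near the portal vein, where amino acid breakdown and gluconeogenesis are also concentrated. Hepatocytes around the central vein capture the remaining ammonia as glutamine through Glul and carry a different set of enzymes, among them Cyp2e1. Periportal and pericentral programs together are called liver zonation.

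Hepatocyte-like cells, named from markers that include none of the 10 genes, numbered 9632 in WT and 2070 in N-LKO, with 16283412 and 4562778 unique molecular identifiers (UMIs, each standing for 1 captured transcript). Their median UMI counts were 1520 and 1940.5 per cell. The summed level of the 8 hepatocyte markers was 44798 CPM in WT and 46738 in N-LKO, where CPM is the UMIs of a gene scaled to a class total of 1000000. Different clusters held most of the class in each library. In WT, 83.9% of the cells were in cluster C0 and 11.9% in C9, whereas 95.6% of the N-LKO cells were in C5, which held 1.24% of the WT cells. A cluster made mostly by 1 library may be that library and not a type. A further cluster of 2044 N-LKO cells and 1 WT cell, led by Grip1, Ptges and Col4a3, had only 1 of 8 hepatocyte markers raised 2-fold and stayed unnamed, and its values are given separately. In the hepatocyte-like class, Nus1 was present at 73.3 CPM in WT and 39.2 in N-LKO (33.7 to 45.4). In barcodes under 500 UMIs, read below as free RNA, Nus1 was at 57.8 in WT and 37.4 in N-LKO (32.7 to 42.6). The N-LKO level in hepatocyte-like cells thus could not be told from that of free RNA. Malat1, a nuclear RNA, stood at 9185 and 4554 in the hepatocyte-like class. UMIs for markers of the other cell types in hepatocyte-like cells reached 96.4% of the level in free RNA in WT and 39.2% in N-LKO. The part of this difference in the results below was not tested.

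Gene positions were taken by gene identifier from a GRCm38 annotation. The 5 urea cycle genes are Cps1 (chr1:67123026-67231259, plus strand), Otc (chrX:10252305-10321024, plus), Ass1 (chr2:31470207-31520672, plus), Asl (chr5:130011258-130029247, minus) and Arg1 (chr10:24915221-24927484, minus). The other 5 are Cyp2f2 (chr7:27119909-27133660, plus), Hal (chr10:93488768-93519304, plus), Sds (chr5:120476526-120483932, plus), Gls2 (chr10:128194457-128210004, plus) and Hsd17b13 (chr5:103955440-103977410, minus). All are protein coding. Sds, Gls2 and Cyp2f2 overlap other genes on the opposite strand, and whether counting used strand is not given in the sources used here, so their counts are less certain.

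RefSeq promoters (GRCm38.p6, 250 bases before the annotated start and 50 after) matched 5 of the 10 genes: Ass1, Hsd17b13, Cyp2f2, Hal and Otc. Those of Hal and Cyp2f2, which were lower by more than 2-fold in N-LKO, and of Hsd17b13, which was higher, are shown 5′ to 3′ on the strand of the gene with motif matches in capitals. Promoters were searched on both strands for a common core-promoter element, spelled TATAAA. The site of C/EBP factors, which regulate many liver enzymes, was searched as TTGCNNAA. The inner part of the cAMP response element was searched as TGACG.
Hal, chr10:93488518-93488817, plus strand: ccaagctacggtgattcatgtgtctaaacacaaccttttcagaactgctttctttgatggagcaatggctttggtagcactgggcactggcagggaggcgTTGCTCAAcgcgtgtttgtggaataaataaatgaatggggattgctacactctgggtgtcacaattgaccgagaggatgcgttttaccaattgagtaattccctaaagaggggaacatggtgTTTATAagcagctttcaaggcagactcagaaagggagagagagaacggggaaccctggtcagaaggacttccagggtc
Cyp2f2, chr7:27119705-27120004, plus strand: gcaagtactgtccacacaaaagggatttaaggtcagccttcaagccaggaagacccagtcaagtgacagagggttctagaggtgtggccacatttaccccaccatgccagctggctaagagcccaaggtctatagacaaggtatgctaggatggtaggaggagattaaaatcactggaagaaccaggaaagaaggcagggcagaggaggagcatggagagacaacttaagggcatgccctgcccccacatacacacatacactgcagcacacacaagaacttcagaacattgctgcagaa
Hsd17b13, chr5:103977339-103977638, minus strand: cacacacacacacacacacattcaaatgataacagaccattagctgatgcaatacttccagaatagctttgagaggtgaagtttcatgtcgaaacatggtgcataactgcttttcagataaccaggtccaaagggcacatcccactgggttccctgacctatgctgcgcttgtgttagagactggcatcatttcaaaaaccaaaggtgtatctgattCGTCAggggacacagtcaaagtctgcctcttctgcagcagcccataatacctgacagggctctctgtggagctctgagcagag
The Hal promoter held TATAAA on the opposite strand at -28 and TTGCNNAA at -150, counted from the annotated start to the first base of the match. The Hsd17b13 promoter held TGACG on the opposite strand at -33. None of the 3 motifs was found in the other 3 promoters. Over 32851 mouse promoters of this length, TATAAA was present in 13.6%, TTGCNNAA in 10.8% and TGACG in 20.8%.

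In hepatocyte-like cells, 9 of the 10 genes were lower in N-LKO, and Hsd17b13 was higher. Cyp2f2, Hal and Gls2 were lower by more than 2-fold, and the urea cycle enzymes differed by less. The median log2 ratio of N-LKO to WT over the 10 genes was -0.50, against 0.04 over the 9973 genes at 5 CPM or more, of which 46.1% were lower in N-LKO. At least 2-fold lower were 3 of 10 genes, while 3.33% of all genes were. None of the 10 was 2-fold higher, against 5.48% of all genes. These ratios set cells of different clusters side by side, and several turned when free RNA was subtracted, as given with the free RNA values. By gene span, the median log2 ratio of all genes ran from 0.26 for the shortest of 5 span classes to -0.07 for the longest, and the 10 genes spanned 7.41 kb (Sds) to 108 kb (Cps1).

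Cps1, the mitochondrial ligase that makes carbamoyl phosphate, was at 2992 CPM in WT (2965 to 3018) and 1816 in N-LKO (1777 to 1856). The log2 ratio was -0.72 (-0.75 to -0.69), that is 1.65-fold lower. Otc, which makes citrulline in the mitochondrion, was at 469.7 and 417 CPM, the least different of the 5 enzymes (log2 ratio -0.17, interval -0.24 to -0.10). Ass1, which joins citrulline to aspartate, was at 913 in WT and 674 in N-LKO (log2 ratio -0.44, -0.49 to -0.38). Asl, which releases arginine and fumarate, was at 199 and 138 CPM (log2 ratio -0.52, -0.65 to -0.40). Arg1, which splits arginine into urea and ornithine, was at 995 and 712 (log2 ratio -0.48, -0.54 to -0.43). The intervals of the 5 enzymes lay below 0, and the interval of Cps1 overlapped none of the other 4.

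The periportal genes outside the cycle were further apart from one another. Cyp2f2, a cytochrome P450 of periportal hepatocytes, was at 829 CPM in WT and 345 in N-LKO, 2.41-fold lower (log2 ratio -1.27, -1.34 to -1.19). Hal, histidine ammonia-lyase, the first enzyme of histidine breakdown, was at 359 and 135, 2.66-fold lower (log2 ratio -1.41, -1.54 to -1.29). Gls2, the liver-type glutaminase that frees ammonia from glutamine, was at 372 and 155, 2.40-fold lower (log2 ratio -1.27, -1.38 to -1.15). These 3 genes lay well apart from the urea cycle enzymes at the mitochondrial limit of 30% used here. At a limit of 10%, which left 671 WT and 217 N-LKO cells, the 4 genes at least 2-fold lower were instead Hal (log2 ratio -2.01), Cps1 (-1.58), Asl (-1.21) and Ass1 (-1.09), while Gls2 was at -0.93 and Cyp2f2 at -0.39. Sds, serine dehydratase, was at 139.8 in WT and 132 in N-LKO, and its interval held 0 (log2 ratio -0.08, -0.21 to 0.05). Hsd17b13, a lipid droplet protein, was at 295 and 412, 1.40-fold higher in N-LKO (log2 ratio 0.48, 0.40 to 0.56).

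**Figure D1:**
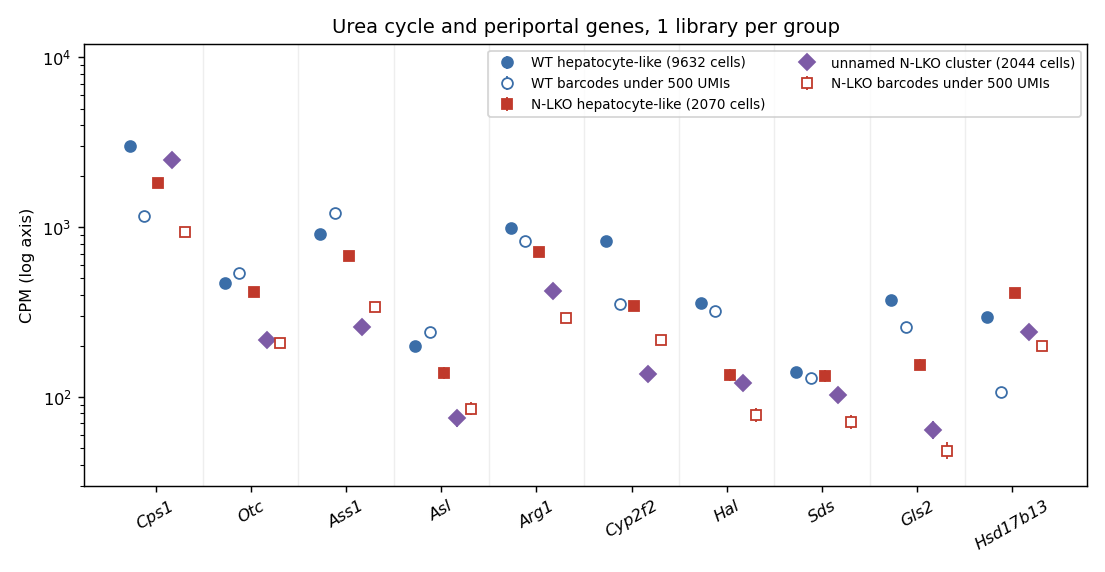
CPM (log axis) for each of the 10 genes in the hepatocyte-like class of WT (blue circles) and N-LKO (red squares), in the unnamed N-LKO cluster (purple diamonds) and in barcodes under 500 UMIs of each library (open symbols). Bars are 95% Poisson intervals. Cyp2f2, Hal and Gls2 show the widest gaps between the filled WT and N-LKO symbols, and for Otc, Ass1 and Asl the open WT circle lies above the filled one.

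Detection in single cells was compared next. After each cell was thinned to 1000 UMIs, for which no cell was too shallow, 88.2% of hepatocyte-like cells in WT and 70.4% in N-LKO held a Cps1 UMI. In endothelial-like cells, which should lack the gene, 46.2% and 43.6% did. Cyp2f2 had shares of 51.3% (WT) and 26.5% (N-LKO) in the hepatocyte-like class, with 15.6% and 8.92% in the endothelial-like one. For Gls2 they were 29.5% and 13.2%, with 13.9% and 3.62% in the endothelial-like class. Hsd17b13 went the other way, with 23.7% (WT) and 29.4% (N-LKO) of the hepatocyte-like class and 6.43% and 10.9% of the endothelial-like class. Without thinning, the hepatocyte-like shares in WT and N-LKO were 92.6% and 81.6% for Cps1, 65.7% and 41.0% for Cyp2f2, 42.9% and 24.6% for Gls2, and 35.3% and 48.5% for Hsd17b13. Otc (51.9% and 53.2%) and Sds (19.7% and 19.9%) were detected in no smaller a share of N-LKO cells without thinning, while thinned shares were 37.0% and 32.7% for Otc and 12.2% and 10.8% for Sds. Median UMI counts of the endothelial-like cells were 1174 and 1265. A thinned hepatocyte-like cell held UMIs of 4.06 of the 10 genes on average in WT and 3.01 in N-LKO. None of the 10 was seen in 1.25% of WT cells and 6.81% of those from N-LKO.

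The levels also differed among hepatocyte clusters of the same library. In WT, Cps1 was at 3032 CPM in C0, 1032 in C9, a cluster poor in Malat1, and 7060 in C20, a cluster of 283 WT cells rich in Malat1. Ass1 was instead highest in C9, with 819 in C0, 1864 in C9 and 1005 in C20. Cyp2f2 was highest in C0 at 907, with 315 in C9 and 377 in C20. The 119 WT cells that joined the N-LKO cluster C5 had lower values than C0 for 9 of the 10 genes. Cps1 was at 1570, Arg1 at 556, Cyp2f2 at 423 and Gls2 at 225, while Hsd17b13 was at 348 in these cells and 314 in C0. The intervals of Otc (367 to 546) and Hsd17b13 (276 to 434) held the C0 level, which for Otc was 453. No share over all genes is given for this comparison.

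Within C5, where cells of both libraries clustered together, most of the differences between libraries were smaller or turned. The median log2 ratio over the 10 genes was 0.09, and none of the 10 was 2-fold lower. No median or share over all genes within C5 is given, so whether other genes moved alike is not known. Hal (log2 ratio -0.79, -1.19 to -0.33), Gls2 (-0.57, -0.97 to -0.12) and Cyp2f2 (-0.33, -0.62 to -0.01) were lower in the 1978 N-LKO cells than in the 119 WT cells. Cps1 (0.18, 0.03 to 0.34), Arg1 (0.35, 0.10 to 0.62) and Sds (1.03, 0.32 to 1.96, from 14 WT UMIs) were higher, and the intervals of the other 4 held 0. These WT cells were placed with N-LKO cells by their other genes, so they are not a sample of WT hepatocytes.

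In the unnamed N-LKO cluster, Cps1 was at 2488 CPM, between the WT and N-LKO hepatocyte-like levels. The cluster's Malat1 was at 19869 CPM, and its hepatocyte markers summed to 13139, both far from the N-LKO hepatocyte-like levels of 4554 and 46738. The part of these differences in its values was not tested. The other 9 genes were lower there than in N-LKO hepatocyte-like cells, with Otc at 216, Ass1 at 258, Asl at 75.2, Arg1 at 421, Cyp2f2 at 136, Hal at 121, Sds at 102, Gls2 at 64.1 and Hsd17b13 at 241. When this cluster was pooled with the N-LKO hepatocyte-like cells, the median log2 ratio of the 10 genes to WT was -0.83, while that of 10627 genes was 0.39. Again 3 genes were at least 2-fold lower, against 2.4% of all genes, and none was 2-fold higher, against 21.9%. The log2 ratios were then -1.74 for Cyp2f2, -1.72 for Gls2, -1.48 for Hal, -0.93 for Ass1 and 0.17 for Hsd17b13.

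To describe zonation, hepatocyte-like cells were ranked within each library by their share of UMIs from 16 pericentral genes, and divided into 5 bins of 1926 or 1927 cells in WT and 414 in N-LKO. The lowest bin stands for the least pericentral cells. All 10 genes were higher in the lowest than in the highest bin in both libraries. At a mitochondrial limit of 10%, this held for 9 in WT and 6 in N-LKO, and with the unnamed cluster for 9 in N-LKO. The median log2 ratio of lowest to highest bin was 0.60 in WT, where 34.7% of 9973 genes were higher in the lowest bin, and 1.28 in N-LKO, where 50.8% were. Over all genes the median was -0.13 in WT and 0.01 in N-LKO.

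Sds had the largest ratio across the bins in both libraries. Its level went from 181 CPM in the lowest bin to 90.5 in the highest in WT, and from 197 to 28.0 in N-LKO. In the first 4 bins the 2 libraries were close, and they differed most in the highest. Cyp2f2 in WT was at 1087, 897, 766, 705 and 625 from the lowest to the highest bin, and in N-LKO at 514, 446, 379, 267 and 107. Gls2 went from 471 to 277 in WT and from 234 to 52.5 in N-LKO, and Hal from 414 to 271 and from 169.5 to 53.7. Hsd17b13 was higher in N-LKO than in WT in the lowest bin, at 514 against 417, and lower in the highest, at 161 against 218.

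The urea cycle enzymes were flatter. Cps1 went from 3383 to 2393 CPM in WT and from 1844 to 1234 in N-LKO, with log2 ratios of lowest to highest bin of 0.50 and 0.58. Otc was the flattest of the 10, with log2 ratios of 0.23 and 0.35, and Asl had 0.59 and 0.73. The intervals of the 2 libraries overlapped for these 3 enzymes. They did not overlap for the other 7 genes, for which the ratio was larger in N-LKO, as for Arg1 (0.32 and 0.91), Ass1 (0.54 and 0.82), Cyp2f2 (0.80 and 2.25) and Sds (1.00 and 2.79). Of the genes that are no members, Pck1, a gluconeogenic enzyme, had log2 ratios of 0.58 and 0.93, and Alb 0.71 and -0.14.

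The order of the 2 libraries in zonation was not tested and turned at a mitochondrial limit of 10%, where the medians were 1.27 and 0.52. In N-LKO all 414 cells of the lowest bin had no pericentral UMI, as had 439 of the 2070 cells in all, and in WT 1264 of 9632 did. Of the 14 pericentral genes measured, 10 were lower in N-LKO over the whole class and 4 were higher. Glul, the glutamine synthetase, was at 776 CPM in the highest N-LKO bin and 1793 in that of WT.

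**Figure D2:**
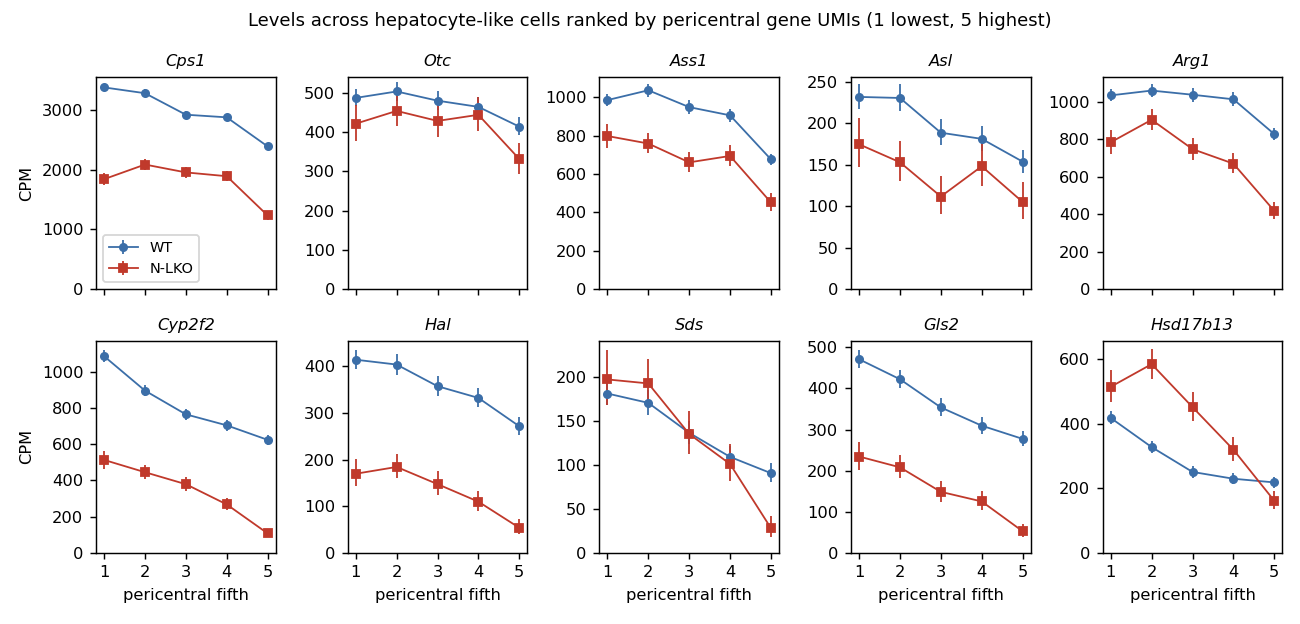
CPM of each gene (vertical axes from 0) in the 5 bins of hepatocyte-like cells ranked within each library by pericentral UMIs, with 1 the lowest and 5 the highest, for WT (blue circles) and N-LKO (red squares). Bars are 95% Poisson intervals. Every gene is higher in bin 1 than in bin 5 in both libraries, and the N-LKO lines of Cyp2f2, Hal, Sds, Gls2 and Hsd17b13 drop by the larger factor.

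Across the 10 points made by 5 bins in 2 libraries, 9 of the genes tracked the mean of the other 9 with a Pearson correlation of 0.84 to 0.97, and Hsd17b13 had 0.37. The 5 genes with the most similar pattern, among 2386 genes compared, were Chrm3 (r = 0.98), a muscarinic receptor, Gldc (0.97), a subunit of the glycine cleavage system, Got1 (0.97), the cytosolic aspartate aminotransferase, Serpina1e (0.97), a secreted protease inhibitor, and Fbp1 (0.97), a gluconeogenic phosphatase. Chrm3 was at 197 CPM in WT and 119 in N-LKO, and Serpina1e at 1718 and 1064. The points share the libraries and the ranking, so these correlations are descriptions.

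Of 10 genes that feed or support the urea cycle, 9 were measured and all 9 were lower in N-LKO, with a median log2 ratio of -0.48, and none differed 2-fold. The intervals of Nags (-0.15) and Gpt (-0.02) held 0. Slc7a2, a carrier of cationic amino acids, was at 949 and 515 CPM (log2 ratio -0.88), Got1 at 218 and 139 (-0.65), and Got2, its mitochondrial counterpart, at 310 and 201 (-0.63). Of the 9 enzymes of amino acid breakdown, 2 were 2-fold lower and none 2-fold higher (median -0.75), against 3.33% and 5.48% of all genes. The 2 enzymes were Tat, tyrosine aminotransferase, at 875 and 366 (-1.26), and Uroc1, which acts after Hal on histidine, at 349 and 157 (-1.15). Gldc was at 265 and 145 (-0.87).

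Enzymes of nitrogen handling outside the cycle were measured for 5 of 8 genes, of which 2 were 2-fold lower and none 2-fold higher (median log2 ratio -0.55). Oat, which converts ornithine to glutamate semialdehyde, was at 339 and 111 CPM (-1.61), and Glul, glutamine synthetase, at 532 and 187 (-1.51). Among 8 regulators of hepatocyte metabolism, 1 was 2-fold higher and none 2-fold lower (median -0.22), against 5.48% and 3.33% of all genes. Cebpb, a C/EBP factor, was at 112 and 225 (1.01), and Cebpa at 94.3 and 57.6 (-0.71). Ppargc1a, a coactivator of fasting genes, was at 46.6 and 25.6 (-0.86). With the unnamed cluster pooled, the log2 ratios were 0.61 for Cebpb, -1.06 for Cebpa, -0.04 for Ppargc1a and 1.73 for Foxo1, an insulin-regulated factor at 0.51 without it, so Cebpb was no longer 2-fold higher and Foxo1 was. In that pooled comparison 21.9% of all genes were 2-fold higher, and the median over all genes was 0.39.

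Lower values were found on both sides of the zonation axis. Of 9 other periportal genes, 2 were 2-fold lower and 1 higher (median log2 ratio -0.45), against 3.33% and 5.48% of all genes. Etnppl, a phospholyase, was at 242 and 35.9 CPM (-2.75), G6pc, the last enzyme of glucose release, at 734 and 327 (-1.17), and Apoa4, an apolipoprotein, at 352 and 914 (1.38). Of 14 pericentral genes measured, 5 were 2-fold lower and none higher (median -0.60). Cyp2c37 was at 63.9 and 12.3 (-2.37), and Slc1a2, a glutamate transporter, at 99.6 and 25.2 (-1.98). With the unnamed cluster included, Slc1a2 was at -0.32, Apoa4 at 0.79, Slc25a13, the mitochondrial aspartate-glutamate carrier, at 0.32 (-0.33 without it), Slc7a2 at -0.49 and Gldc at -0.44, and Got2 was then 2-fold lower. The list medians were then -0.59 for urea cycle support, -0.83 for nitrogen handling, -0.44 for amino acid breakdown, 0.24 for regulators, -0.67 for the other periportal genes and -0.50 for the pericentral genes. All lay below the median of 0.39 over all genes in that comparison.

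**Figure D3:**
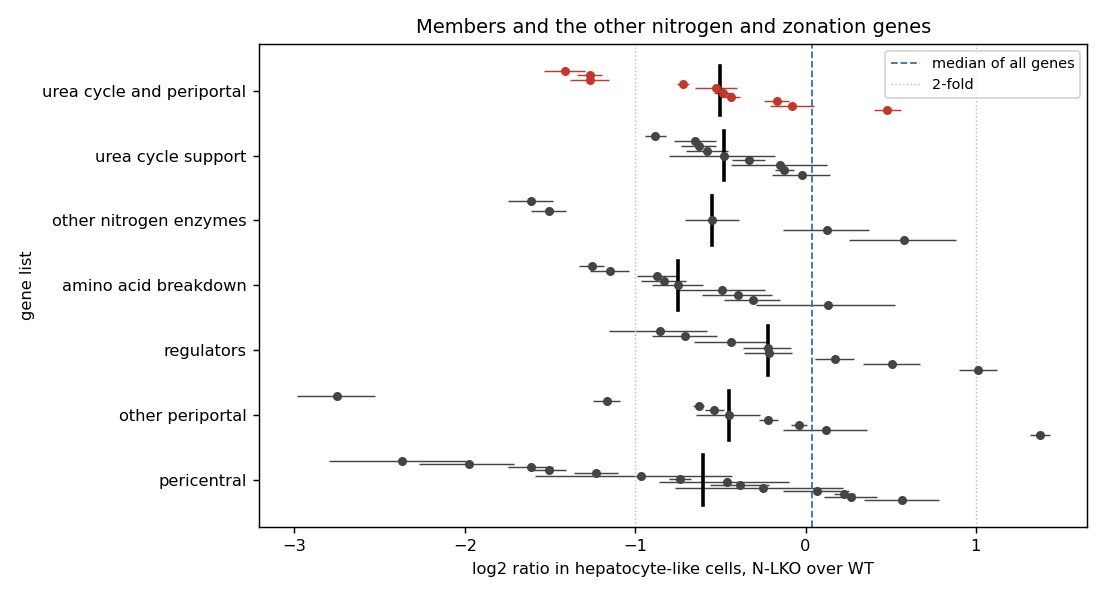
Log2 ratio of N-LKO to WT in hepatocyte-like cells for the 10 genes (red) and for the measured genes of 6 further lists (dark gray), with 95% intervals as bars and the median of each list as a black line. The dashed line is the median of all genes (0.04) and the dotted lines mark 2-fold. All 7 medians lie below the dashed line, and single genes such as Apoa4 and Cebpb lie beyond 2-fold on the other side.

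Hepatocyte transcripts reach other droplets as free RNA, which was read from barcodes under 500 UMIs (18526 in WT and 13674 in N-LKO). The matrices held no barcode under 326 UMIs in WT or 377 in N-LKO, so emptier droplets could not be used. Malat1 was at 2324 CPM in the barcodes under 500 UMIs of WT and 5593 in those of N-LKO. Whether shallow or broken cells were among these barcodes was not tested. In them, 9 of the 10 genes were lower in N-LKO and the median log2 ratio was -1.43, against 0.04 over all genes. Gls2 was at 259 CPM in WT and 48.4 in N-LKO (log2 ratio -2.42), Hal at 323 and 78.4 (-2.04), and Ass1 at 1218 and 338 (-1.85). Hsd17b13 was at 108 and 199.7 (0.89). Free RNA thus differed between the libraries in the same direction as the hepatocyte-like cells for each of the 10 genes. Subtracting free RNA from the hepatocyte-like counts left 21.0% of the UMIs in WT and 65.0% in N-LKO, with Otc, Ass1 and Asl at 0 in WT. The free RNA subtracted equalled 96.4% of the class UMIs in WT and 39.2% in N-LKO. A gene with fewer UMIs than were subtracted was set at 0, so more UMIs were left than these shares give, most of all in WT. Ratios relative to the UMIs left rest on this floor. Relative to the UMIs left, Cyp2f2 (log2 ratio -2.54), Cps1 (-1.99) and Gls2 (-1.49) were lower in N-LKO by over 2-fold, Hal was at -0.49 and Arg1 at -0.04, and Hsd17b13 (-0.83) and Sds (1.10) turned. Relative to the total before subtraction, Cyp2f2 (-0.91) and Cps1 (-0.36) were still lower, whereas Hal (1.14), Arg1 (1.59) and Gls2 (0.14) were higher. Because a larger share of UMIs was left in N-LKO, this total puts the ratio of every gene higher than the UMIs left do. Of the 7 genes with a ratio, Cps1 and Cyp2f2 were lower in N-LKO in both versions, and the directions of Hal, Gls2, Arg1 and Hsd17b13 depended on the total used. In WT the hepatocyte-like level was above that of free RNA for 7 of the 10 genes, by 2.56-fold for Cps1 and 2.74-fold for Hsd17b13, and below it for Otc, Ass1 and Asl. In N-LKO it was above for all 10, from 1.60-fold for Cyp2f2 to 3.20-fold for Gls2.

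In the 8 other cell classes, median log2 ratios of the 10 genes ran from -1.46 in cholangiocyte-like cells to -0.83 in a mixed stellate cluster. Hsd17b13 was higher in N-LKO in all 8 classes, and Cps1 was lower in 5 of 8. Free RNA, estimated from hepatocyte markers that are no members, made up 27.5% to 67.5% of the UMIs by class and library. The observed counts were 0.63 to 2.06 times those that this share would give. None of the 160 combinations of class, library and gene had an interval wholly above 2 times the free RNA count, and 71 had one wholly above that count. The highest was Cps1 in N-LKO endothelial-like cells, at 2.06 times (1.99 to 2.13). Cyp2f2 had an interval wholly above the free RNA count in none of 16 combinations. Among cells of at least 2000 UMIs, 10 combinations lay above 2 times the free RNA count, of which 7 were of Cps1, up to 4.20 times in N-LKO endothelial-like cells. Undetected doublets were not tested as a source. Counts of these genes outside the hepatocyte-like class were not read as expression.

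**Figure D4:**
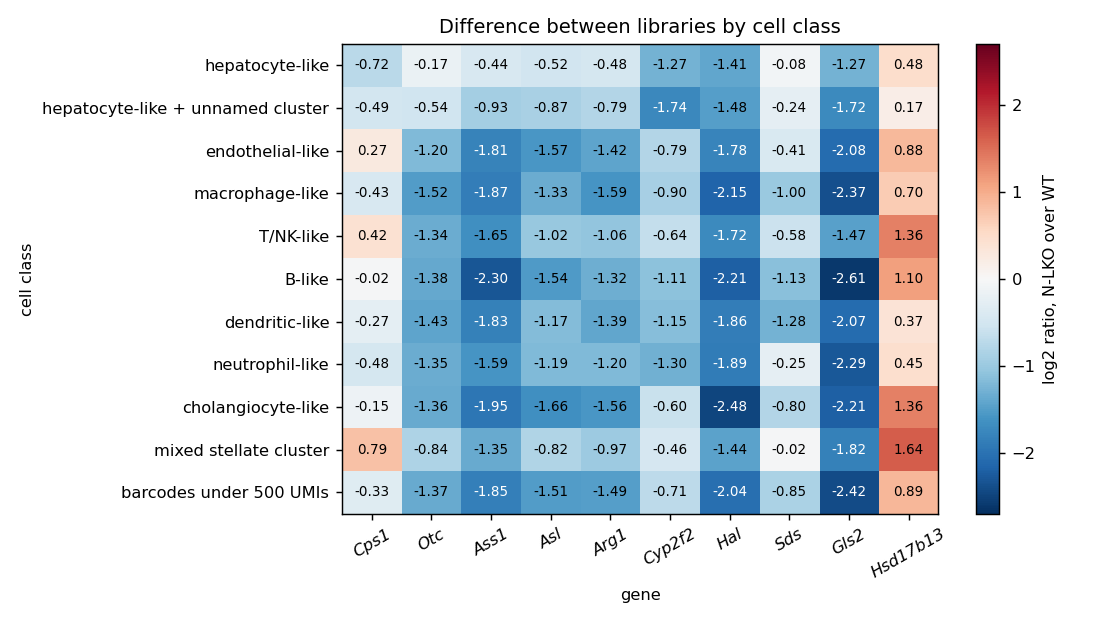
Log2 ratio of N-LKO to WT for each of the 10 genes (columns) in each cell class and in barcodes under 500 UMIs (rows), printed in each cell and shown by color, blue for lower and red for higher in N-LKO. The rows of the other classes resemble that of barcodes under 500 UMIs, and Hsd17b13 is the only column that is above 0 throughout.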

How the data were processed

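Cells freed by perfusion of the liver with collagenase were barcoded in droplets. The deposited matrices hold raw UMI counts as whole numbers, which the authors made with Cell Ranger. The headers of the files give version 7.1.0. The submitters' processing notes name mm9. The matrices carry gene identifiers without coordinates, and 99.6% of these were in the GRCm38 annotation (GENCODE M21) used for positions. Whether intronic reads or strand were counted is not given in the sources used here.

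The matrices held 100171 (WT) and 90147 (N-LKO) barcodes with 85522287 and 87575064 UMIs. Barcodes with at least 1000 UMIs, 400 genes and at most 30% mitochondrial UMIs were kept, and doublets (Scrublet score above 0.25) were removed, 8.57% and 10.6%, leaving 18431 and 19855 cells. The libraries shared 121 barcode sequences among these cells. Cell types were rebuilt here by clustering on 30 principal components of 2000 variable genes, without the 10 genes and the zonation lists (Leiden, 20 neighbors, resolution 0.3), and named from fixed marker lists, so that a difference from the study may come from the rebuilt names. scanpy 1.11.5, leidenalg 0.10.2, numpy 2.4.6 and scipy 1.17.1 were used.

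UMIs were summed per class and library and given as CPM (scaled to a total of 1000000), with exact Poisson intervals. Log2 ratios (0.5 UMI added) had exact conditional binomial intervals. No test was possible with 1 library per group. A gene was counted as 2-fold lower or higher from its log2 ratio, among genes at 5 CPM or more in at least 1 library. For zonation, totals left out the pericentral genes. Named were the 10 genes, up to 3 genes of the largest ratio per list plus Glul and Oat, and the 5 most similar genes at 50 CPM or more in both libraries. Alb, Nus1, Malat1, Pck1 and the leading genes of the unnamed cluster were added as context after their values were seen. The members and lists were chosen with earlier results of these data known. The interval script was tested on simulated data. Settings for filters, doublets, clustering, scaling, bins and free RNA were varied.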

Additional observations from a re-analysis of the deposited data

Results flagged for a closer look

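In barcodes under 1000 UMIs, which the comparisons between cell classes leave out, Hsd17b13 was at 163 CPM in the N-LKO library (59798 barcodes) and 110 in the WT library (74613 barcodes), a log2 ratio of 0.57 (0.52 to 0.63). It was the only one of the 10 genes above the level in the WT library there, and the other 9 were lower in N-LKO. No share or median over all genes is given for these barcodes. They include the barcodes under 500 UMIs read as free RNA, where Hsd17b13 was also higher in N-LKO, so the value is not separate from that result. It lies outside the main measurement, and 1 library per group gives it no replicate check.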

How the results depend on the processing

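No paired analysis was possible because each group had 1 library, and for the same reason no replicate could be left out. The median log2 ratio of the 10 genes in hepatocyte-like cells stayed between -0.89 and -0.45 over 11 of the 12 alternatives chosen with the design, and 3 or 4 genes were 2-fold lower in each, though with a mitochondrial limit of 10% these included Cps1, Ass1 and Asl in place of Cyp2f2 and Gls2. Of the 11, dropping the filter on low values could not change the ratios of these genes. Scaling to the median of all genes only moved them by a constant. Pooling the unnamed N-LKO cluster, added after seeing the data, gave -0.83 and 3 genes. Within cluster C5, also added after seeing the data, the median turned to 0.085, with 0 genes 2-fold lower and 1 (Sds) higher, and the ratios of Cps1 (0.18), Asl (0.27), Arg1 (0.35) and Sds (1.03) turned. No values over all genes within C5 stand beside these, and the cause was not tested. Sds also turned (log2 ratio 0.040) when clusters C9 and C20 were left out for their extreme Malat1. Apart from free RNA subtraction, 13 alternatives gave ratios of one sign for Cyp2f2, Hal, Gls2, Otc, Ass1 and Hsd17b13, although within C5 the intervals of Otc (-0.12) and Ass1 (-0.01) held 0. With a mitochondrial limit of 10%, the zonation medians were 1.27 in WT and 0.52 in N-LKO. Combinations above 2 times free RNA numbered 1 with a profile from barcodes under 600 UMIs, and 10 with a minimum of 2000 UMIs per cell, of which 7 were Cps1, 2 Hal and 1 Arg1. At 1 time the free RNA count, 71 were above. Subtracting free RNA from hepatocyte-like cells, the 12th, left 21.0% of the UMIs in WT and 65.0% in N-LKO and set Otc, Ass1 and Asl at 0 in WT, so that these had no ratio and stood above the others in the median. Every gene with fewer UMIs than were subtracted was set at 0, and the UMIs left in WT rest on this floor. Relative to the UMIs left, the median was -0.26, with 3 genes 2-fold lower and 4 higher, and Sds (1.10) and Hsd17b13 (-0.83) turned. Relative to the total before subtraction, added after seeing the data, the median turned to 1.37, with 0 genes 2-fold lower and 6 higher, and Arg1 (1.59), Hal (1.14), Sds (2.73) and Gls2 (0.14) turned. Both counts of higher genes include Otc, Ass1 and Asl, set at 0 in WT. On the total before subtraction the ratio of every gene is higher, because a larger share of UMIs was left in N-LKO. Values over all genes are not given for either version. Depth limits single cells more than sums: the hepatocyte-like cells held medians of 1520 and 1940.5 UMIs.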
